A study of Mus musculus with 18 samples.

Results

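The fractalkine pair and the chemokine receptors are described here as 8 genes of the mouse brain: the receptor Cx3cr1 and its ligand Cx3cl1 (fractalkine), the CC receptors Ccr1 and Ccr2, the atypical receptor Ccrl2, and the CXC receptors Cxcr2, Cxcr3 and Cxcr4. They were taken by gene symbol, each from its single row, out of 36172 genes. Of the 8, 7 had a value in the fit across 14803 genes that passed a filter of over 20 normalised counts in every library of at least 1 group, and Cxcr3 did not pass.

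The libraries came from 9 Cx3cr1-Cre/Ert2+; NuTRAP+ mice, 6 female and 3 male, which all received tamoxifen at about 3 months of age and, 3 to 4 weeks later, 1 systemic injection of lipopolysaccharide (LPS, 5 mg/kg) or of the vehicle PBS, 24 h before the brain was taken. LPS went to 4 females and 1 male and PBS to 2 females and 2 males, so sex was not balanced between the treatments. Each mouse gave a half-brain lysate (input) and the RNA on GFP-tagged ribosomes pulled down from it (positive fraction), by translating ribosome affinity purification (TRAP). The 4 groups were Input PBS (4 libraries), Input LPS (4), Positive PBS (4) and Positive LPS (5), since the input library of LPS animal 271 held a total of only 1252 counts and was left out. The tag was switched on by a Cre at the Cx3cr1 locus itself, in all groups alike, so Cx3cr1 is both a measured gene and the driver. Per the study's methods the mice were heterozygous, with the Cre allele beside a wild-type allele at this locus. What the Cre allele adds to the Cx3cr1 counts was not tested. Macrophages at the brain borders that use this locus can carry the tag too. According to the study, the weeks after tamoxifen were left to avoid label in circulating monocytes, which it describes as short-lived and quickly renewed.

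As background, chemokine receptors are G protein-coupled receptors that steer leukocytes towards secreted chemokines. Fractalkine is unusual among chemokines in being made as a transmembrane protein, mostly by neurons, with a chemokine head on a mucin-like stalk that proteases can shed, and its only known receptor in the brain, Cx3cr1, is carried by microglia. Ccr2 is known from inflammatory monocytes, Ccr1 from myeloid cells, Cxcr2 from neutrophils, Cxcr3 from T and NK cells, and Cxcr4 as the widely used receptor of Cxcl12. Ccrl2 binds the leukocyte attractant chemerin without signalling.

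The 17 libraries held 22968834 to 35123335 counts, in which 3 counts are a share of 8.54e-06% to 1.31e-05%. Counts were divided by size factors to give normalised counts, and values are printed in the order of animals 268, 272, 273 and 506 for PBS and 266, 267, 270, 271 (positive fraction only) and 507 for LPS. In the pull-down, 18 of 18 microglia markers were called higher than in input in PBS and in LPS animals, where 21.0% and 27.6% of all tested genes were. In PBS animals so were 10 of 10 markers of border-associated macrophages and 8 of 9 endothelial markers. These are bulk samples, so fewer cells of a type and less RNA per cell cannot be told apart. A gene was called where edgeR's quasi-likelihood test gave an adjusted p (Benjamini-Hochberg over all genes tested) under 0.05 with an absolute log2 fold change over 0.32, the study's own fold threshold.

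The 250 bases before the annotated start of 5 genes are shown first, because LPS moved 4 of them and the fifth is the driver locus. They are RefSeq promoters on GRCm38.p6, the assembly that mm10 names, printed 5′ to 3′ on the strand of the gene. Capitals mark letters that matched a motif searched on both strands, which were the NF-kB site, the interferon-stimulated response element (GAAANNGAAA), a PU.1 site (GAGGAAGT) and the TATA box (TATAAA).
Ccrl2 (chr9:111057519-111057768, minus strand, the farthest upstream of 3 starts): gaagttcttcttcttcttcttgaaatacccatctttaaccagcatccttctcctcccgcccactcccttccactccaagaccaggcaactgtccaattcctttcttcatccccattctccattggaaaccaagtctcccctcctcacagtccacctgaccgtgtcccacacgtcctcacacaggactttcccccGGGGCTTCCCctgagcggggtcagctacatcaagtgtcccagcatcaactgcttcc
Ccr1 (chr9:123968693-123968942, minus strand): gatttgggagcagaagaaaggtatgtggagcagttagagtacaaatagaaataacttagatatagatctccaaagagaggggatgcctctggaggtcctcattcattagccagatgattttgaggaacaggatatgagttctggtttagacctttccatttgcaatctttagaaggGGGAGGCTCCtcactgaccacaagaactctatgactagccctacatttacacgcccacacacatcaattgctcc
Cx3cl1 (chr8:94771930-94772179, plus strand): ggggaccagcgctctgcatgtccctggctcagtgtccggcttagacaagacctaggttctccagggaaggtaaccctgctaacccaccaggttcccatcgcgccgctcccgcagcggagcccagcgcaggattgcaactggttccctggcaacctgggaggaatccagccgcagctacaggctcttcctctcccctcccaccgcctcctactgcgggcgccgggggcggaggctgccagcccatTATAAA
Ccr2 (chr9:124101933-124102182, plus strand): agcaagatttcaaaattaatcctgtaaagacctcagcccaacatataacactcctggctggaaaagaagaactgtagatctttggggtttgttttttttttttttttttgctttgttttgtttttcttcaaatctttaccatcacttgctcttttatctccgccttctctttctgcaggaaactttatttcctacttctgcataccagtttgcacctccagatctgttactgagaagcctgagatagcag
Cx3cr1 (chr9:120068297-120068546, minus strand): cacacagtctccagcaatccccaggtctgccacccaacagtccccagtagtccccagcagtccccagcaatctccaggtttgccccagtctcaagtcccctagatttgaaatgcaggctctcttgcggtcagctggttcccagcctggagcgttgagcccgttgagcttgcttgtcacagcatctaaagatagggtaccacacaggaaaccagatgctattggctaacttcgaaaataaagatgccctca

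The capitals in Ccrl2 (bases -56 to -47 from that start) and in Ccr1 (bases -74 to -65) were NF-kB letters. The Ccrl2 match reads as the motif on both strands. Of 32851 promoters of this length, 7.25% held the NF-kB motif, 2.98% the interferon element, 2.44% the PU.1 motif and 12.4% the TATA box. The TATA letters in Cx3cl1 lay at bases -6 to -1. Ccr2 and Cx3cr1 held none of the 4 motifs in these windows, and the other 2 starts of Ccrl2 held none either. The Ccrl2 locus given below has its 5′ end at 111057270. That is the start after the window chr9:111057271-111057520, which held none of the motifs, and not the start shown. A match is a description of letters, not of binding.

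In the positive fraction, LPS raised Ccrl2 and lowered Cx3cl1 and Ccr2, while Cx3cr1, Ccr1, Cxcr2 and Cxcr4 were not called. Thus 1 of 7 tested genes was called higher, where 19.0% of all tested genes were, and 2 were called lower, where 14.9% of all were. In input, Ccr1 was called higher (7.16% of all tested genes were) and Cx3cl1 lower (5.26% of all). In PBS animals the pull-down raised Cx3cr1, Ccr1, Ccrl2, Ccr2 and Cx3cl1 over input, 5 of 7 where 21.0% of all tested genes were called higher, and lowered Cxcr2, 1 of 7 where 18.8% of all were called lower. In LPS animals Cx3cr1, Ccrl2 and Ccr1 were called higher (27.6% of all) and Cxcr2 lower (25.8% of all). Tested as an interaction of LPS and fraction, 0 of the 7 genes were called by edgeR or by DESeq2. Of all tested genes, edgeR called 5.46% higher and 1.42% lower. For Ccr2 the edgeR adjusted p of the interaction was 0.0607, as given below. Ccr2 passed the filter only through Positive PBS, the group where it was high, and Ccr1 only through the positive groups. Both were thus tested because they were high in the pull-down. The counts of the 7 genes called higher there depend in part on this and say nothing about the genes as a set. With total-count scaling, which moved the median of all genes by -0.116 and -0.177 (log2) in the enrichments, the called genes that were higher made up 38.1% in place of 52.8% in PBS animals, 35.3% in place of 51.7% in LPS animals, and 67.7% in place of 79.4% for the interaction. The comparisons share libraries, Positive PBS for example serving both the LPS effect and the enrichment in PBS animals.

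**Figure D1:**
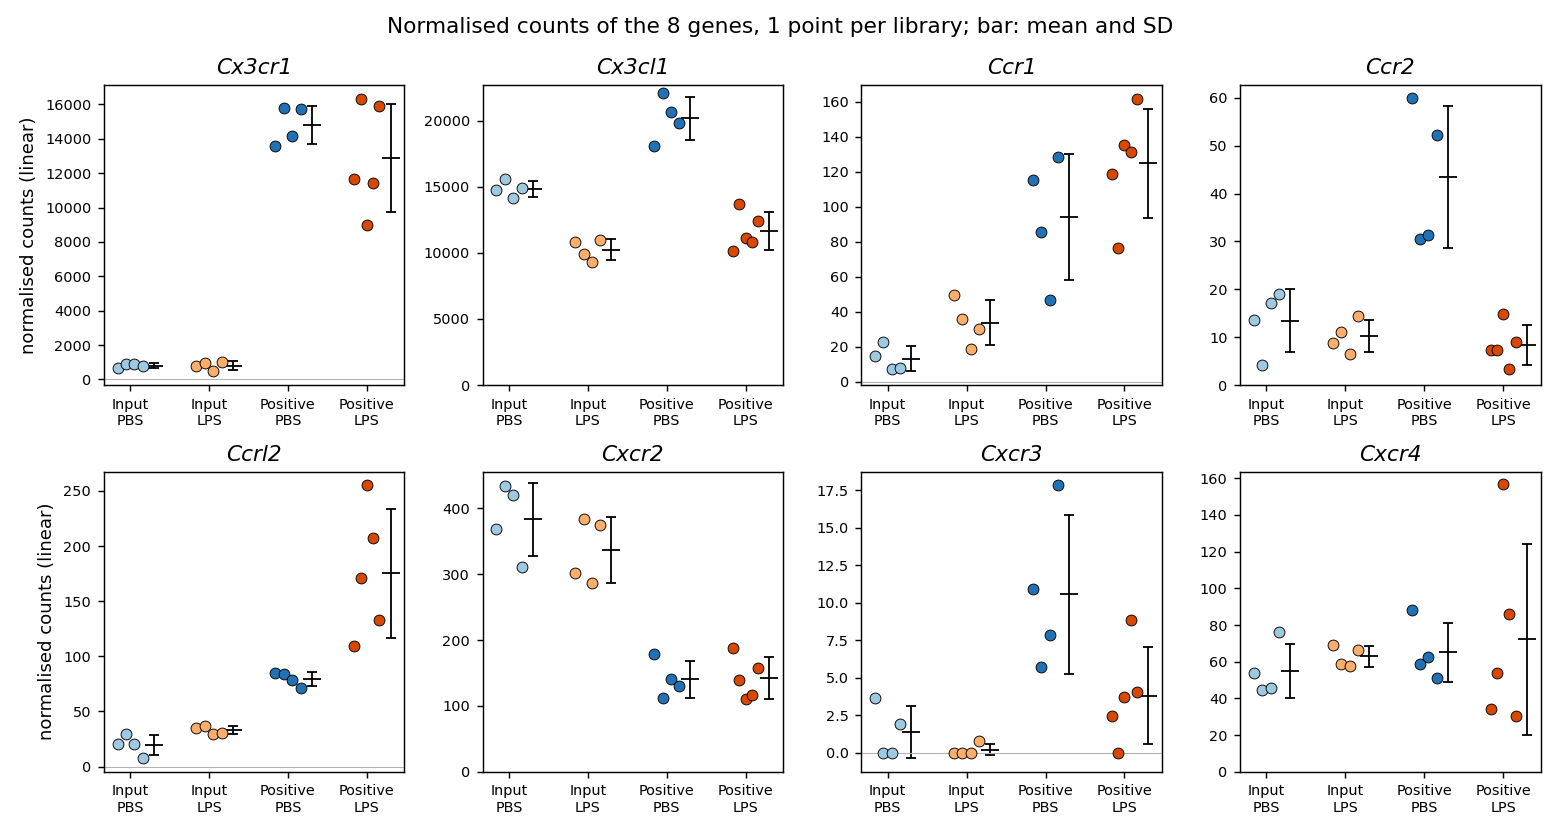
Normalised counts on a linear axis that differs between panels, for the 8 genes in the 4 groups; each point is a library and the bar beside it is the mean with its SD. Ccr2 in Positive LPS (3.31 to 14.8) sits below Positive PBS (30.5 to 59.9), and Ccrl2 in Positive LPS (109 to 255) sits above Positive PBS (71.3 to 84.9).

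**Figure D2:**
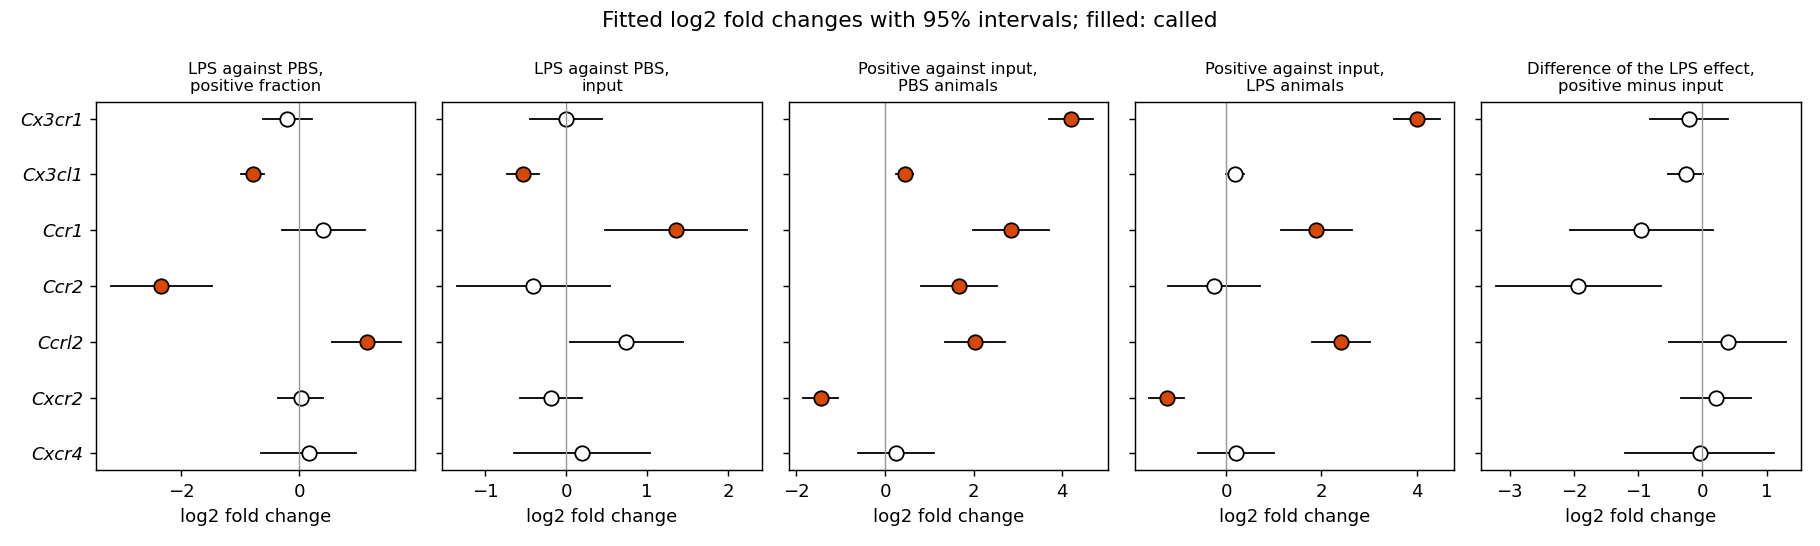
Log2 fold change (edgeR) of the 7 tested genes in the 5 comparisons, each panel with its own axis; lines are 95% intervals and filled points are called. Cx3cr1 stands at 4.21 in the enrichment of PBS animals and at -0.20, not called, for LPS in the positive fraction.

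Cx3cr1, the fractalkine receptor (chr9:120048683-120068296 on mm10, minus strand), was the most strongly enriched of the 7 tested genes. Its normalised counts were 637, 922, 890 and 759 in Input PBS and 13572, 15775, 14149 and 15758 in Positive PBS. They were 801, 954, 466.3 and 993 in Input LPS and 11646, 16343, 8997, 11454 and 15888 in Positive LPS. Every positive library lay above every input library, and animal 270 was the lowest of its group in both fractions. The log2 enrichment was 4.21 (SE 0.23, edgeR adjusted p = 4.41e-11) in PBS and 4.00 (SE 0.22, adjusted p = 4.34e-11) in LPS animals. Of the enrichments in PBS animals, 0.351% of all tested genes had a higher one.

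No LPS effect on Cx3cr1 was called. The log2 fold change was -0.20 in the positive fraction (SE 0.19, 95% interval -0.61 to 0.21, edgeR adjusted p = 0.411) and 0.00 in input (SE 0.21, interval -0.44 to 0.45, adjusted p = 0.996), with overlapping groups. The spread was wider after LPS, with a coefficient of variation of 24.5% in Positive LPS against 7.60% in Positive PBS. In the same positive libraries 11 of 18 microglia markers were called lower and 3 higher after LPS (14.9% and 19.0% of all tested genes), with a median log2 fold change of -0.68 against 0.01 over all tested genes.

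Cx3cl1, the ligand (chr8:94772180-94782426, plus strand), fell after LPS in both fractions. Its normalised counts were 14756, 15571, 14146 and 14891 in Input PBS and 10822, 9895, 9299 and 10983 in Input LPS. In the positive fraction they were 18114, 22069, 20688 and 19824 with PBS and 10142, 13703, 11125, 10859 and 12432 with LPS. No LPS library reached the lowest PBS library of its fraction. The level fell by 42.2% in the positive fraction (log2 fold change -0.79, SE 0.09, edgeR adjusted p = 1.18e-06) and it fell by 30.9% in input (-0.53, SE 0.09, adjusted p = 0.000529). The difference of these effects was -0.26 (SE 0.13, interval -0.53 to 0.01, adjusted p = 0.268) and was not called.

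The ligand was also slightly higher in the pull-down than in input. The log2 enrichment was 0.44 in PBS animals (SE 0.09, edgeR adjusted p = 0.000687, no overlap) and 0.19 in LPS animals (SE 0.09, adjusted p = 0.0733, overlapping groups). With all 18 libraries the PBS value was 0.31 with an adjusted p of 0.0944, and with the deposited log2 values it was 0.31, under the fold threshold, so this call was lost. Markers of cells other than microglia were in the pull-down as well: 12 neuron markers summed to 291709 to 335529 normalised counts per library in Positive PBS and 218799 to 297475 in Positive LPS, against 282836 to 296686 and 255578 to 278374 in input. Of these 12, 6 were called lower after LPS in the positive fraction (median -0.32), where 14.9% of all tested genes were, and 0 in input (median -0.17). Of 9 endothelial markers, 8 were called higher in the pull-down of PBS animals (median 1.45), where 21.0% of all tested genes were. Their part in the Cx3cl1 values was not tested.

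Of 4 genes that act on fractalkine cleavage, 3 were enriched in the pull-down with either treatment. Of all tested genes, 21.0% were called higher there in PBS and 27.6% in LPS animals. Adam17, a sheddase of fractalkine, rose after LPS in the positive fraction from 1442 ± 128 (SD, n = 4) to 2558 ± 477 (SD, n = 5) normalised counts, which on the log2 scale was 0.83 (SE 0.13, edgeR adjusted p = 5.59e-05). In input it was 566 ± 70.1 (SD, n = 4) and 578 ± 57.7 (SD, n = 4), not called, and the difference of effects was called (0.80, SE 0.19, adjusted p = 0.0127). The other 3, Adam10, Ctss and Timp3, were not called for LPS in either fraction, Adam10 having an adjusted p of 0.028 in the positive fraction at a log2 fold change of 0.26, under the fold threshold. The Adam17 locus overlaps Iah1 on the other strand.

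**Figure D3:**
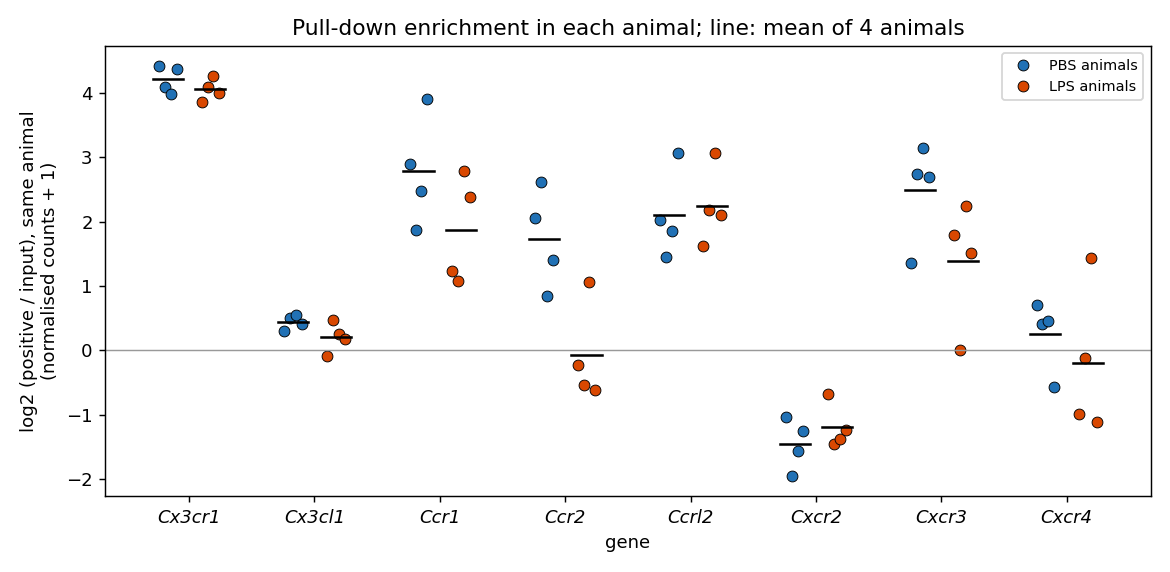
Log2 ratio of positive to input normalised counts (1 added to each) within each animal, for 4 PBS and 4 LPS animals; the line is the mean. Ccr2 lies between 0.84 and 2.62 in PBS animals and between -0.61 and 1.07 in LPS animals, while Cxcr2 lies below 0 in all 8.

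Ccrl2, the chemerin-binding receptor (chr9:111054835-111057270, minus strand), rose after LPS in the positive fraction. The normalised counts of the 4 Positive PBS libraries were 84.9, 83.8, 78.4 and 71.3, and those of the 5 Positive LPS libraries were 109, 171, 255, 208 and 133. All LPS libraries exceeded all PBS libraries, and animal 270 was highest. The fold change was 2.20 (log2 1.14, SE 0.27, edgeR adjusted p = 0.00245), and it was called in 29 of 29 alternatives (0.96 to 1.27).

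Input gave the same order at a lower level, without a call. Ccrl2 was at 20.05, 29.9, 20.9 and 7.62 normalised counts in Input PBS and at 34.96, 36.8, 29.6 and 30.2 in Input LPS. The groups overlapped only between PBS animal 272 and LPS animal 270, and the log2 fold change was 0.74 (SE 0.32, edgeR adjusted p = 0.135). Enrichment in the pull-down was 4.06-fold in PBS (log2 2.02, adjusted p = 4.13e-05) and 5.33-fold in LPS animals (log2 2.41, adjusted p = 1.02e-06). Rarres2, which encodes its ligand chemerin, was not called for LPS in either fraction (log2 0.23 and 0.10).

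Ccr1 (chr9:123962126-123968692, minus strand), a receptor of Ccl3 and Ccl5 among others, was enriched in the pull-down and rose after LPS in input. Its normalised counts were 14.6, 22.7, 7.60 and 7.62 in Input PBS and 49.8, 35.8, 18.9 and 30.2 in Input LPS. Only the lowest LPS library, of animal 270, fell under the highest PBS library. The log2 fold change was 1.36 (SE 0.41, edgeR adjusted p = 0.0322). At 8 to 57 counts per library this call was easily lost: the adjusted p was 0.142 without animals 506 and 507, 0.088 with animal as a random replicate block, and 0.0577 to 0.111 without Input LPS 266 or 267 or without Input PBS 268, 273 or 506 (log2 1.11 to 1.42).

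In the positive fraction Ccr1 was at 115, 85.7, 47.0 and 129 normalised counts with PBS and at 119, 76.7, 135, 131 and 162 with LPS. These groups overlapped, and the log2 fold change was 0.41 (SE 0.32, interval -0.29 to 1.10, edgeR adjusted p = 0.328). The enrichment over input was 7.18-fold in PBS animals (log2 2.84, SE 0.40, adjusted p = 1.3e-05) and 3.71-fold in LPS animals (log2 1.89, SE 0.34, adjusted p = 0.00013). The difference of the LPS effects, -0.95 (SE 0.52, adjusted p = 0.333), was not called. 

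Ccr2 (chr9:124102183-124109140, plus strand), the receptor of Ccl2, had the largest LPS effect of the 7 tested genes and fell in the positive fraction. Its normalised counts were 59.9, 30.5, 31.3 and 52.2 in Positive PBS and 7.35, 7.25, 14.8, 3.31 and 9.05 in Positive LPS. The highest LPS library stood below the lowest PBS library. In Positive PBS, 59.9 and 52.2 came from females and 30.5 and 31.3 from males. The level was 5.04-fold lower (log2 -2.33, SE 0.40, edgeR adjusted p = 0.000139), and 99.7% of all tested genes had a higher log2 fold change. The filter let Ccr2 in only through Positive PBS, where it was high. This call, the gap between the groups and the rank may therefore depend in part on that selection. The call held in 27 of 27 alternatives in which Ccr2 had a value (-2.65 to -2.13), where Cx3cr1 had 29.

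In input Ccr2 was low with either treatment. It stood at 13.7, 4.13, 17.1 and 19.1 normalised counts in Input PBS and at 8.74, 11.0, 6.57 and 14.4 in Input LPS. The groups overlapped (log2 -0.41, SE 0.44, interval -1.35 to 0.54, edgeR adjusted p = 0.591). Ccr2 was called higher in the pull-down of PBS animals (3.18-fold, log2 1.67, SE 0.40, adjusted p = 0.00221) and was not called in LPS animals (log2 -0.26, SE 0.44, adjusted p = 0.63). The enrichment in PBS animals also uses Positive PBS, the group that let Ccr2 through the filter, so it is not independent of that selection.

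The log2 LPS effect on Ccr2 in the positive fraction minus that in input was -1.93 (SE 0.60, interval -3.22 to -0.64, edgeR adjusted p = 0.0607), which was not called. It was called with sex as a term (-1.94, adjusted p = 0.0418), with animal as a fixed replicate block (-1.78, adjusted p = 0.0482), and without Input LPS 270 (-2.09, adjusted p = 0.0487) or Positive LPS 270 (-2.25, adjusted p = 0.025). Of the 50-base windows in its annotated transcripts, 1.91% occurred letter for letter in another gene.

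Some markers of border-associated macrophages were lower in the same libraries. All 10 were called higher in the pull-down of PBS animals, where 21.0% of all tested genes were. After LPS 5 of 10 were called lower and 0 higher in the positive fraction (median -0.71), where 14.9% of all tested genes were lower, and the other 5 were not called (Cd163 at 0.15). In input 1 of 10 was called lower (median -0.09), where 5.26% of all tested genes were. Their summed levels overlapped, at 11122 to 19464 normalised counts in Positive PBS and 7652 to 16311 in Positive LPS. Of 9 tested monocyte markers, 3 were called higher and 1 lower after LPS in the positive fraction, beside 19.0% and 14.9% of all genes. The monocyte list summed to 3273 to 5189 normalised counts in Positive PBS and 3603 to 5095 in Positive LPS. Ly6c2, a marker of the Ccr2-bearing monocyte, was at 147 ± 40.9 (SD, n = 4) and 183 ± 66.5 (SD, n = 5) there and was not called (log2 0.31, edgeR adjusted p = 0.45). The part of these cells in the Ccr2 values was not tested.

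Cxcr2 (chr1:74153994-74161246, plus strand), a receptor of Cxcl1, Cxcl2 and Cxcl5, was lower in the pull-down than in input. Its normalised counts were 369, 433, 421 and 311 in Input PBS and 302, 384, 287 and 375 in Input LPS. They were 179, 111, 141 and 130 in Positive PBS and 187, 140, 110, 117 and 158 in Positive LPS. No positive library reached the lowest input library. The level was 2.74-fold lower in PBS (log2 -1.45, SE 0.18, edgeR adjusted p = 4.18e-06) and 2.37-fold lower in LPS animals (log2 -1.24, SE 0.17, adjusted p = 6.34e-06).

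LPS did not give a call for Cxcr2. The log2 fold change was 0.02 in the positive fraction (SE 0.18, interval -0.36 to 0.41, edgeR adjusted p = 0.933) and -0.19 in input (SE 0.18, interval -0.57 to 0.19, adjusted p = 0.532). Among marker lists, 8 of 8 oligodendrocyte genes were lower in the pull-down too (median -1.99 with PBS, -1.71 with LPS), where 18.8% and 25.8% of all tested genes were. They summed to 103693 to 163331 normalised counts in Input PBS and 24398 to 32139 in Positive PBS. Of 14 neutrophil markers, 13 had a row and 7 passed the filter. Ly6g was at 0 in all 17 libraries, a value from which its expression cannot be read. The list summed to 427 to 776 normalised counts in Input PBS and 768 to 1805 in Input LPS. In the positive fraction it summed to 1820 to 2190 with PBS and 1105 to 2134 with LPS. Of the 7, 6 were called higher after LPS in input, where 7.16% of all tested genes were. In the positive fraction 5 were called higher and 1 lower after LPS (median 2.15), beside 19.0% and 14.9% of all tested genes. In the pull-down of PBS animals 2 were called higher and 3 lower, beside 21.0% and 18.8% of all tested genes. Their part in the Cxcr2 level was not tested. Of the 50-base windows in the Cxcr2 transcripts, 4.01% occurred in other genes.

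Cxcr4 (chr1:128588199-128592299, minus strand), the receptor of Cxcl12, was not called in any comparison. Its normalised counts were 53.8, 44.4, 45.6 and 76.2 in Input PBS and 69.1, 58.8, 57.5 and 66.5 in Input LPS. They were 88.2, 59.0, 62.7 and 51.0 in Positive PBS and 34.3, 53.9, 157, 86.1 and 30.2 in Positive LPS. Positive LPS held both the lowest and the highest libraries of all 17, with a coefficient of variation of 72.2%, against 9.03% to 26.8% in the other groups. The log2 fold change for LPS was 0.15 in the positive fraction (SE 0.37, interval -0.65 to 0.96, edgeR adjusted p = 0.764), and -0.35 without the library of animal 270.

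Cxcr3 (chrX:101731536-101734147, minus strand), the receptor of Cxcl9 and Cxcl10, was near the limit of detection. Its counts were 4, 0, 0 and 2 in Input PBS and 0, 0, 0 and 1 in Input LPS. They were 10, 6, 6 and 14 in Positive PBS and 2, 0, 4, 8 and 4 in Positive LPS. Normalised, the means were 10.6 ± 5.29 (SD, n = 4) in Positive PBS and 3.80 ± 3.23 (SD, n = 5) in Positive LPS, and a single LPS library, of animal 271, lay within the PBS range. An exact permutation test (two-sided, smallest p possible 0.0159) gave p = 0.0476 for this difference, 0.0952 after Benjamini-Hochberg adjustment over 4 tests. For Positive against Input PBS the exact p was 0.0286, the smallest possible with 4 against 4, and 0.0952 adjusted, for the LPS animals it was 0.0794 (0.106 adjusted), and for LPS in input 0.429. Of 14 T and NK cell markers, 3 passed the filter. The list summed to 627 to 945 normalised counts in Positive PBS and 496 to 744 in Positive LPS. Cd3g, Ncr1 and Prf1 did not exceed 3 counts in any positive library. Among positive libraries, Klrb1c, Gzma and Gzmb exceeded 3 counts only with LPS, and Cd3e only with PBS.

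Levels were compared between genes after division by transcript length, as normalised counts per kilobase. Cx3cr1 was measured in mice heterozygous for the Cre allele at its locus. In Positive PBS, Cx3cl1 at 6086 ± 499 (SD, n = 4) stood above Cx3cr1 at 3947 ± 300 (SD, n = 4). In Positive LPS both overlapped, at 3515 ± 427 and 3428 ± 839 (SD, n = 5). In Input PBS the gap was far wider, with 4477 ± 176 for Cx3cl1 and 214 ± 34.8 for Cx3cr1. In Input LPS, Cx3cr1 (124 to 265) overlapped Cxcr2 (94.3 to 126). The other 6 genes ran in Positive PBS from Cxcr2 at 46.0 ± 9.31 through Ccrl2, Cxcr4, Ccr1 and Ccr2 to Cxcr3 at 6.10 ± 3.06, each overlapping the next. In Positive LPS, Ccrl2 headed them at 81.0 ± 27.0, overlapping Cxcr2 at 46.8 ± 10.3.

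Most of the tested ligands of these receptors rose after LPS. Of 19 ligand genes, 16 were tested. In the positive fraction 12 were called higher and 3 lower, where 19.0% and 14.9% of all tested genes were, and in input 11 were called higher and 0 lower, where 7.16% and 5.26% of all were. The median log2 fold changes were 2.94 and 2.56, against 0.01 and 0.00 over all tested genes. Ccl5, a ligand of Ccr1, rose in the positive fraction from 49.3 ± 7.44 (SD, n = 4) to 6198 ± 2207 (SD, n = 5) normalised counts, which was 6.98 on the log2 scale (SE 0.32, edgeR adjusted p = 4e-11). Its rise in input was 3.55 (SE 0.30, adjusted p = 3.14e-07), and the difference was called (3.43, SE 0.43, adjusted p = 0.000111).

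Among the ligands that rose were some of Cxcr3 and Cxcr2. Cxcl10, a Cxcr3 ligand, had a log2 fold change of 6.10 in the positive fraction (SE 0.67, edgeR adjusted p = 1.23e-06) and of 5.12 in input (SE 0.64, adjusted p = 2.2e-05). Cxcl1, a Cxcr2 ligand, rose by 5.79 (SE 0.72, adjusted p = 5.39e-06) and 5.51 (SE 0.71, adjusted p = 3.19e-05). Cxcl2, another, went from 2.48 ± 1.95 (SD, n = 4) to 88.2 ± 47.4 (SD, n = 5) normalised counts in the positive fraction (log2 5.05, SE 0.59, adjusted p = 2.54e-06). In input, where no PBS library exceeded 3 counts, it went from 1.71 ± 1.21 to 40.9 ± 14.5 (SD, n = 4 each). The Cxcl10 locus overlaps Art3 on the other strand.

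Ccl2 and Cxcl12 are named because they pair with Ccr2 and Cxcr4, a choice made after their values were seen. Ccl2 rose in the positive fraction from 16.1 ± 7.38 (SD, n = 4) to 212 ± 96.4 (SD, n = 5) normalised counts (log2 3.68, SE 0.46, edgeR adjusted p = 5.28e-06), while Ccr2 fell there. Cxcl12 fell from 1882 ± 331 (SD, n = 4) to 771 ± 29.1 (SD, n = 5), or -1.29 on the log2 scale (SE 0.11, adjusted p = 4.74e-08). In input Cxcl12 changed by -0.21 (SE 0.11, adjusted p = 0.239), and the difference was called (-1.08, SE 0.16, adjusted p = 0.00037).

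**Figure D4:**
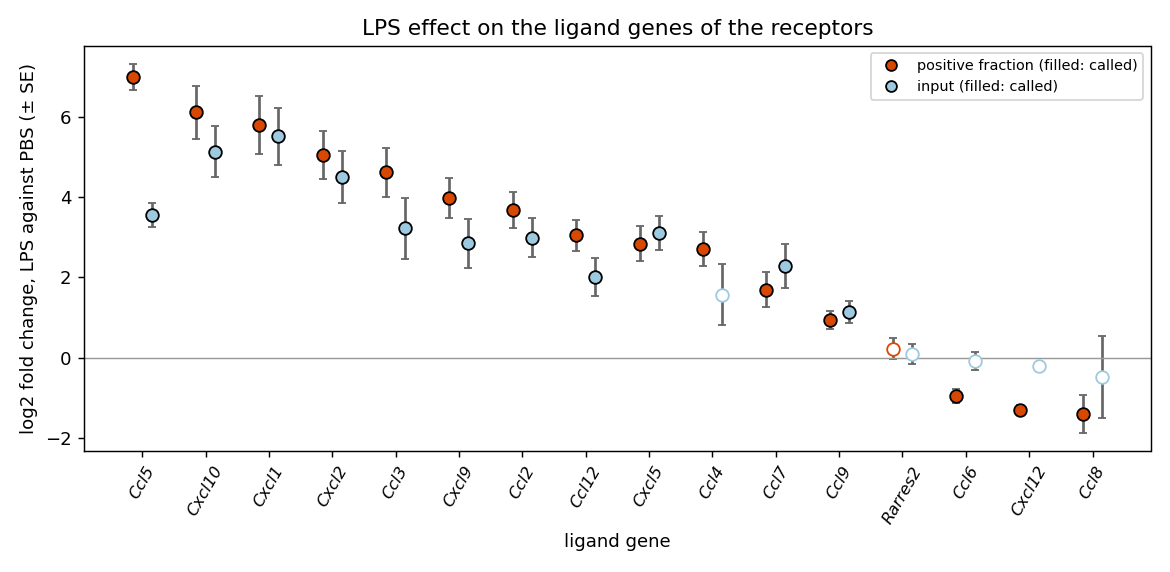
Log2 fold change (LPS against PBS, bars ± SE) of the 16 tested ligand genes in the positive fraction and in input, ordered by the positive fraction; filled points are called. Ccl5 leads at 6.98, and Ccl6, Cxcl12 and Ccl8 lie below 0 in the positive fraction.

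Of 19 other chemokine and chemoattractant receptors, 6 were tested. Cmklr1, the signalling chemerin receptor, was enriched in the pull-down (log2 3.91 in PBS and 3.98 in LPS animals) and not called for LPS (-0.08 and -0.15). Among the atypical receptors, Ackr1 was called higher after LPS in input (0.40, SE 0.11, adjusted p = 0.0157) and in the pull-down of PBS animals (0.45), Ackr2 was lower in the pull-down of both (-1.18 and -1.16), and Ackr4, which overlaps Acad11 on the other strand, was higher in that of LPS animals (1.02).

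Of 40 genes that carry chemokine receptor signals, 38 were tested. In the positive fraction 14 were called higher and 7 lower after LPS (median 0.14), beside 19.0% and 14.9% of all tested genes. In input 9 were called higher and 3 lower (median 0.07), beside 7.16% and 5.26%. The kinase Fgr rose from 48.8 ± 11.6 (SD, n = 4) to 2082 ± 424 (SD, n = 5) normalised counts in the positive fraction (log2 5.41, SE 0.25, edgeR adjusted p = 5.52e-11) and by 2.67 in input (SE 0.26, adjusted p = 1.62e-06). The small GTPase Rac2 rose by 2.11 (SE 0.24, adjusted p = 2.42e-06) and Pik3r5, a subunit of the G protein-coupled PI3 kinase, by 1.95 (SE 0.19, adjusted p = 4.3e-07) in the positive fraction. Dock2, which microglia are known to express, was listed at 0 in all 17 libraries, and whether it was expressed cannot be read from this value.

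The genes whose pattern was most like each receptor's were found by Pearson correlation of log2 normalised counts (1 added) over the 17 libraries, which share the groups, so that r mainly follows fraction and treatment. Cx3cr1 was nearest to Lpcat2, Ptpn18 and Unc93b1 (r = 0.996 each), and over the 9 positive libraries alone to Tmem126b (0.973), Anxa5 (0.961) and Mex3a (0.958). Cx3cl1 was nearest to Tln2 (0.969), Wfdc1 (0.964) and Numb (0.962). Ccrl2 was nearest to Naip6 (0.972), Tgif1 (0.970) and Scpep1 (0.966), Ccr1 to H2-T23 (0.948), Tmem106a (0.947) and Ggta1 (0.944). Ccr2 was nearest to Mrc2 (0.892), Ccdc162 (0.876) and Rilpl1 (0.873). Cxcr2 was nearest to Ptgds (0.977), Ccdc176 (0.973) and Mfn1 (0.969), and Cxcr4 had no neighbour above Zfp362 (0.755).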

How the data were processed

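TRAP-RNAseq libraries of input and positive fractions were strand-specific, polyA-selected and sequenced as paired reads. Per the study's methods, the authors trimmed and aligned reads to mm10 in Strand NGS, kept reads in the appropriate direction, and deposited estimated counts per gene. The authors also deposited log2 values after DESeq normalization, which were rebuilt to within 0.01 for 100% of counts over 20 and served only as an alternative. Of the nonzero estimated counts 81.7% were not whole, so they were rounded. Size factors (0.766 to 1.32) were medians of ratios over 15766 genes.

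Tests used edgeR 4.0.16 in R 4.3.3 (quasi-likelihood, 1 mean per group, 17 libraries). The study used analysis of variance with the same filter, adjusted p and fold threshold. The scripts were tested on simulated data. Alternatives used DESeq2 1.42.0, limma 3.58.1, other scalings, filters and libraries, sex, and an animal block. The block is by design, since input and positive fraction of 1 animal share a number: over 8 animals, same-animal deviations from the group means correlated at 0.16 to 0.519, and 8 of 8 matched their own animal best. Libraries of a group differed beyond sampling noise (chi-square per degree of freedom at least 5.63). The labels number the animals separately, so within a fraction each library is another animal. The main fit held no animal term. Its p-values for enrichment and for the interaction treated libraries of the same animal as independent, and do not measure the spread between animals alone.

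The 8 genes, the lists of ligands, receptors, signalling genes and markers, and the rule for named genes were chosen with earlier results of these data known. Named were all called genes among the other receptors, and of each pathway list the 4 called genes with the largest LPS effect in the positive fraction and the 2 with the largest in input. Some genes that this rule names are not reported here. Transcript lengths came from GENCODE vM21 through RefSeq accessions. Intervals and shares cover counting error or the spread between libraries of a group only.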

Additional observations from a re-analysis of the deposited data

Results flagged for a closer look

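Among 32 groups of 4 or 5 libraries looked at for a sample standing apart from the rest (8 genes in 4 groups), 1 stood out: Cxcr3 in Input LPS, where animal 507 had a normalised count of 0.755, a single read, and the other 3 libraries had 0. Chance alone marks about 1 in 20 groups, and a single count among zeros always meets this criterion.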

How the results depend on the processing

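The calls of Cx3cr1, Ccrl2 and Cxcr2, the LPS effects of Cx3cl1 and of Ccr2 in the positive fraction, and the enrichment of Ccr1 and of Ccr2 in PBS animals held in every alternative in which the gene had a value. Ccr2 had a value in 27 of these alternatives, where Cx3cr1 had 29, and its calls all use Positive PBS, the group through which it passed the filter. Ccr1 in input, Cx3cl1 in the pull-down of PBS animals and the difference for Ccr2 did not hold in all, as given above. Over the 17 fits that each left out 1 library, 3 genes of the 8 were called for LPS in the positive fraction in every fit, 1 to 2 for LPS in input, 6 and 4 for enrichment in PBS and LPS animals, and 0 to 1 for the difference. For LPS in input 1 was called without animals 506 and 507 and 1 with animal as a random replicate block, where 2 were called otherwise. For the difference 1 was called with sex as a term and 1 with animal as a fixed replicate block. All these were Ccr1 lost or Ccr2 gained. The block changed no other call of the 8 genes. Of all genes, 1083 were called for LPS in input (1839 with all animals) and 323 for the difference (1018) without animals 506 and 507, which leaves 3 animals per input group, and 1915 for the difference with the fixed replicate block. The shifts under total-count scaling stand in the report.

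Values near 0 that were not called changed sign. For Cx3cr1 in input the log2 fold change was -0.042 with limma, -0.0037 with TMM, -0.0027 with only the libraries compared, -0.141 without animals 506 and 507, -0.017 with the deposited log2 values, -0.057 with the random replicate block, and -0.116 to 0.19 with 1 library left out. For Cxcr2 in the positive fraction it was -0.0049 with total-count scaling, -0.054 without animals 506 and 507, and -0.089 to 0.16 with 1 library left out. For Cxcr4 in the positive fraction it was -0.094 with limma, -0.041 with the deposited values, -0.071 with the random replicate block, and -0.35 to 0.36 with 1 library left out. Enrichment of Cxcr4 in LPS animals was -0.069 with limma, -0.169 with the deposited values, -0.125 with the fixed replicate block, and -0.30 to 0.41 with 1 library left out, and its difference was -0.54 to 0.16. The causes were not tested. At 57 counts or fewer, Ccr2, Cxcr3 and Ccr1 in input have wide intervals, and differences within these were not detectable at this depth.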
